A study of Mus musculus with 12 samples.

Results

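The transcripts of the mitochondrial genome were followed through 12 mouse liver RNA-seq libraries. The members were every row of the gene count table whose gene name begins with mt-, which gave 37 of 55401 rows, and they were also all 37 rows placed on chromosome MT. They comprised 13 protein-coding genes, 2 ribosomal RNA (rRNA) genes and 22 transfer RNA (tRNA) genes. After the filter on low counts 35 members were tested, among them all 13 coding genes, both rRNA genes and 20 tRNA genes. The tRNA genes mt-Td and mt-Tk were not tested. mt-Td had a count in 2 libraries, at 0.0209 CPM (counts scaled to library size by TMM) in flox control 3 and 0.0253 CPM in cre control 3, and mt-Tk was at 0 in all 12, which allows up to 3 counts, or 0.0458 to 0.0734 CPM, in a library. Both genes lie in a stretch that is also copied on chromosome 1, as given below. This floor therefore holds for reads counted in the row and not for the RNA.

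The study crossed Lpcat3 genotype with diet, with 3 libraries in each of 4 groups. Lpcat3 encodes a lysophosphatidylcholine acyltransferase that places polyunsaturated fatty acids in membrane phospholipids. The flox groups carried the genotype LPCAT3flox/flox and the cre groups LPCAT3flox/flox-cre, and each genotype had a control group and a group fed the methionine- and choline-deficient (MCD) diet for 8 weeks, a model of steatohepatitis. All mice were C57BL/6 and labelled male and 6 to 8 weeks old. Because the MCD groups were fed for 8 weeks, this label is not read as the age at tissue collection, which is not known here. The mice were fasted for 12 hours before tissue collection. The labels do not give the promoter that drives Cre, so the cells in which Lpcat3 was deleted are not known here. The labels do not say whether the libraries of a group came from separate mice, so p-values measure the spread between these libraries.

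The mammalian mitochondrial genome is a small circle transcribed from both strands into long precursors. The coding genes and the rRNA genes are separated by tRNA genes, and excision of the tRNAs releases the messages and the rRNAs. All of its proteins are subunits of the respiratory chain or of ATP synthase, which are completed by many subunits made from nuclear genes. In liver this machinery supports fatty acid oxidation, the urea cycle and gluconeogenesis. Polyadenylated messages are recovered in poly(A) libraries, whereas mature mitochondrial tRNAs carry no poly(A) tail, so signal over a tRNA gene in such a library can also come from precursors or from fragments that reach over from a neighbour.

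Libraries totalled 40883986 to 65516723 estimated counts. Lpcat3 was at 41.4 to 63.4 CPM in the 6 flox libraries and at 16.1 to 23.3 CPM in 5 of the 6 cre libraries, but at 56.1 CPM in the remaining one, which is called the library labelled cre MCD 3 below. That library and flox control 3 also stood apart with the lowest shares of rRNA. The hepatocyte marker Alb was at 34172 to 80306 CPM in all libraries. Xist was at 116 to 685 CPM and Ddx3y, Uty, Eif2s3y and Kdm5d were at 0 in all 12 libraries, against the label male.

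Sequence shared between members, and between members and the nuclear genome, limits what some rows can show, so the stretches concerned are given first. Coordinates are those of the authors' table for mm10, all 37 members have the same start, end and strand in GENCODE vM21, and sequences are from the GENCODE vM21 transcripts. On chromosome 1, minus strand, 7 pseudogenes between positions 24611535 and 24616197 (4663 bases) copy the mitochondrial genome from within mt-Co1 into mt-Nd4. Over the bases they share, the copies of mt-Co2 (Gm28661, 681 bases), mt-Atp6 (Gm10925, 678 bases), mt-Co3 (Gm28437, 783 bases), mt-Nd4l (Gm10222, 294 bases) and the first 876 bases of mt-Nd4 (Gm28439) were 100% identical to the mitochondrial genes. Only the copies of mt-Nd3 and of the end of mt-Co1 differed. Gm28438 differed from mt-Nd3 at 1 of 345 bases, T3C counted from the gene's first base, and Gm29216 differed from the last 492 bases of mt-Co1 at 6, all at its start: T1056A, C1057T, A1059G, A1060G, C1062A and A1066T. The first 30 bases of both pairs are shown with the differing bases in capitals. These were the only differences over the bases that the 7 copies share with their genes. The bases between the copies were not compared, so other differences there are not known.
mt-Nd3: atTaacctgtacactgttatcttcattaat
Gm28438: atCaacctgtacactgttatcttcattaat
mt-Co1: ggTCtAAcCggaAttgttttatccaactca
Gm29216: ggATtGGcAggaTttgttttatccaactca

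The mitochondrial members of these pairs lie at MT:9459-9488 and MT:6381-6410 on the plus strand, and the copies at chr1:24613090-24613119 and chr1:24616168-24616197 on the minus strand. Values of mt-Co2, mt-Atp6, mt-Co3, mt-Nd3, mt-Nd4l and the shared parts of mt-Co1 and mt-Nd4 are therefore uncertain, because the authors' counting could have split reads between the copies. The tRNA genes mt-Ts1, mt-Td, mt-Tk, mt-Tg and mt-Tr lie in the same stretch. They were not compared with chromosome 1, and their values are uncertain too. mt-Atp8 lies wholly inside the copied stretch, so its values are uncertain as well. Its last 43 bases are also the first bases of mt-Atp6 and of Gm10925, and its other bases were not compared with chromosome 1. The 43 bases are given because no read inside them can be assigned to 1 of the 3 rows.
mt-Atp8 and mt-Atp6, MT:7927-7969, plus strand: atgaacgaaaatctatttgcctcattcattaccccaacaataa

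A further overlap joins the tRNA genes called in flox mice. mt-Ti, the isoleucine tRNA, is read from the plus strand at MT:3706-3774 and mt-Tq, the glutamine tRNA, from the minus strand at MT:3772-3842. The 3 bases that both genes occupy are in capitals.
mt-Ti: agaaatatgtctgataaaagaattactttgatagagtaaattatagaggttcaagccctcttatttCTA
mt-Tq: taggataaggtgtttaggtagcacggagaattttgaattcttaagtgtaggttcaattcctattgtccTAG

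The first 2 bases of mt-Ti are also the last of mt-Nd1. mt-Nd5 and mt-Nd6, on opposite strands, share 14 bases at MT:13552-13565. Whether the counting used strand is not given in the sources used here, so reads inside such shared bases cannot be assigned to 1 strand.

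Coding mitochondrial RNA took its highest share of the libraries in cre mice on the control diet. Of all counts in a library, the 13 coding genes held 25.4%, 29.96% and 14.9% in cre control replicates 1, 2 and 3. The flox control libraries gave them 6.26%, 14.7% and 9.86%. On MCD their shares were 9.95%, 13.2% and 11.3% in flox mice and 10.9%, 7.39% and 8.81% in cre mice. All 3 cre control libraries were above the other 9, although cre control 3 exceeded flox control 2 by little. Group means were 23.4% ± 7.73 for cre and 10.3% ± 4.21 for flox mice on the control diet, and 9.04% ± 1.78 for cre and 11.5% ± 1.62 for flox mice on MCD (SD, n = 3). Without the nuclear rRNA row CT010467.1, which took 5.6% to 43.0% of a library, the coding share was 27.3% ± 8.05 in cre control against 10.5% ± 2.57 in cre MCD (SD, n = 3). The counting error of any coding share was at most 0.014 percentage points to either side (Wilson 95% interval), which covers counting error only. In bulk liver, fewer cells of a type and less RNA per cell cannot be told apart.

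Ribosomal RNA of the mitochondrion overlapped between the groups of each comparison. mt-Rnr1 and mt-Rnr2, the RNAs of the small and the large mitochondrial ribosomal subunit, together held 10.9%, 6.46% and 1.92% of counts in flox and 6.55%, 6.07% and 8.45% in cre mice on the control diet. On MCD they held 4.86%, 6.07% and 4.84% in flox mice and 8.07%, 5.90% and 1.82% in cre mice. The 2 lowest values belong to flox control 3 and the library labelled cre MCD 3. CT010467.1, an 18S rRNA related sequence on chromosome 17, was lowest in the same libraries, at 7.34% and 5.6% of counts. The ratio of coding to rRNA counts ran from 0.575 in flox control 1 to 5.13 in flox control 3, and the range within flox control was as wide as that over all 12 libraries. The 22 tRNA genes held 0.0232% to 0.109% of counts, with the highest share in cre control 2 and the lowest in cre MCD 2.

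**Figure D1:**
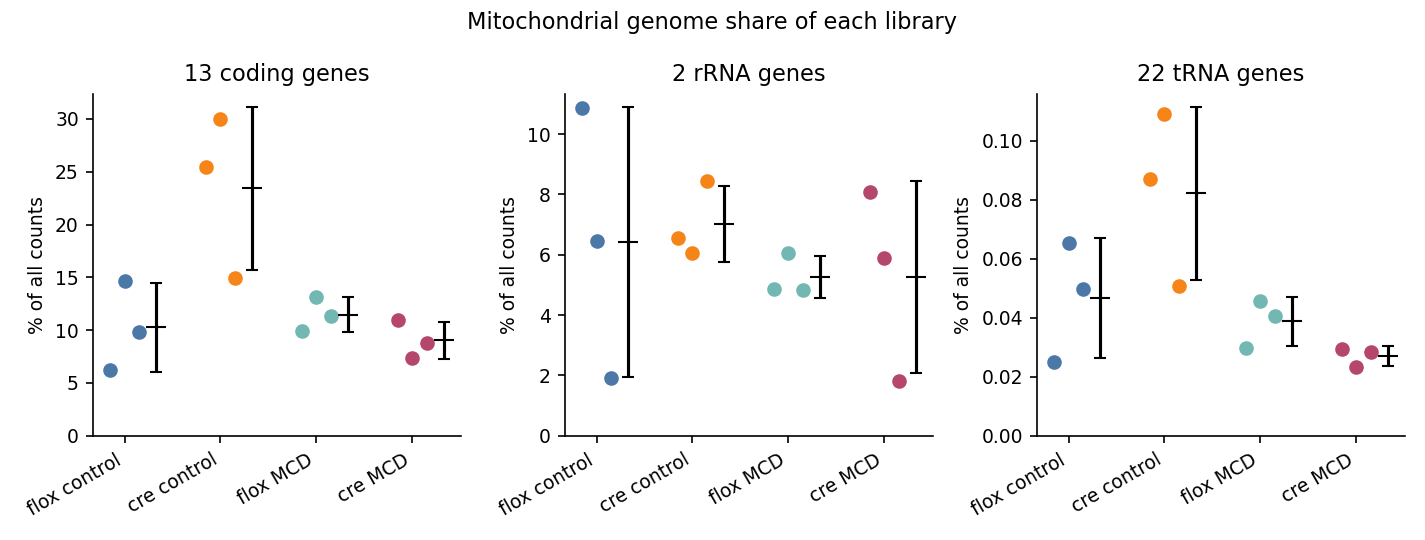
Share of all counts of each library, in percent, in the 13 coding, 2 rRNA and 22 tRNA mitochondrial genes. Points are libraries, and bars are the mean ± SD of the 3 libraries of a group. Coding shares were 14.9% to 29.96% in cre control and 6.26% to 14.7% elsewhere, while the rRNA shares overlapped between diets within a genotype and between genotypes on a diet.

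Per base of gene, the messages spanned a wide range of levels in the authors' FPKM, in which counts are scaled to gene length and library depth. mt-Co1, the catalytic subunit of cytochrome c oxidase, had the highest median over the 12 libraries, 21958 FPKM with a range of 10619 to 70026. Next came mt-Cytb of complex III with a median of 16796 FPKM, and then mt-Nd1, mt-Nd2 and mt-Nd4 of complex I with 14362, 9443 and 7039 FPKM. mt-Co1 was above mt-Cytb in 11 of 12 libraries, and mt-Nd1 above mt-Nd2 in 12 of 12. The rRNA rows mt-Rnr1 and mt-Rnr2 had medians of 20058 and 19418 FPKM.

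The other 8 coding genes were listed far lower. mt-Nd5 had a median of 1844 FPKM and mt-Nd6, the coding gene on the other strand, 1210 FPKM. The ATP synthase subunit genes mt-Atp6 and mt-Atp8 had medians of 1290 and 858 FPKM, and the cytochrome c oxidase subunit genes mt-Co2 and mt-Co3 902 and 852 FPKM. mt-Nd3 and mt-Nd4l, small subunits of complex I, were lowest with 80.6 and 33.8 FPKM. The order within mt-Nd5 to mt-Co3 was not fixed, since each of these genes passed its lower neighbour in only 4 to 9 of 12 libraries, except that mt-Co3 was above mt-Nd3 in all 12. Of the lower genes 6, namely mt-Co2, mt-Atp8, mt-Atp6, mt-Co3, mt-Nd3 and mt-Nd4l, are the ones inside the stretch copied on chromosome 1, where medians were 33.8 to 1290 FPKM against 1210 to 21958 FPKM for the other 7 coding genes. The copies themselves held medians of 201 FPKM for Gm28661, 360 FPKM for Gm10925 and 320 FPKM for Gm28437, or 21.7%, 27.6% and 35.4% of the mitochondrial gene in the median library. The share of Gm10222 against mt-Nd4l ran from 10% to 215%. Adding copy and gene gave a median of 1177 FPKM for mt-Co2, still below mt-Nd5, and the part of reads with more than 1 place in the genome in these low levels was not tested.

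**Figure D2:**
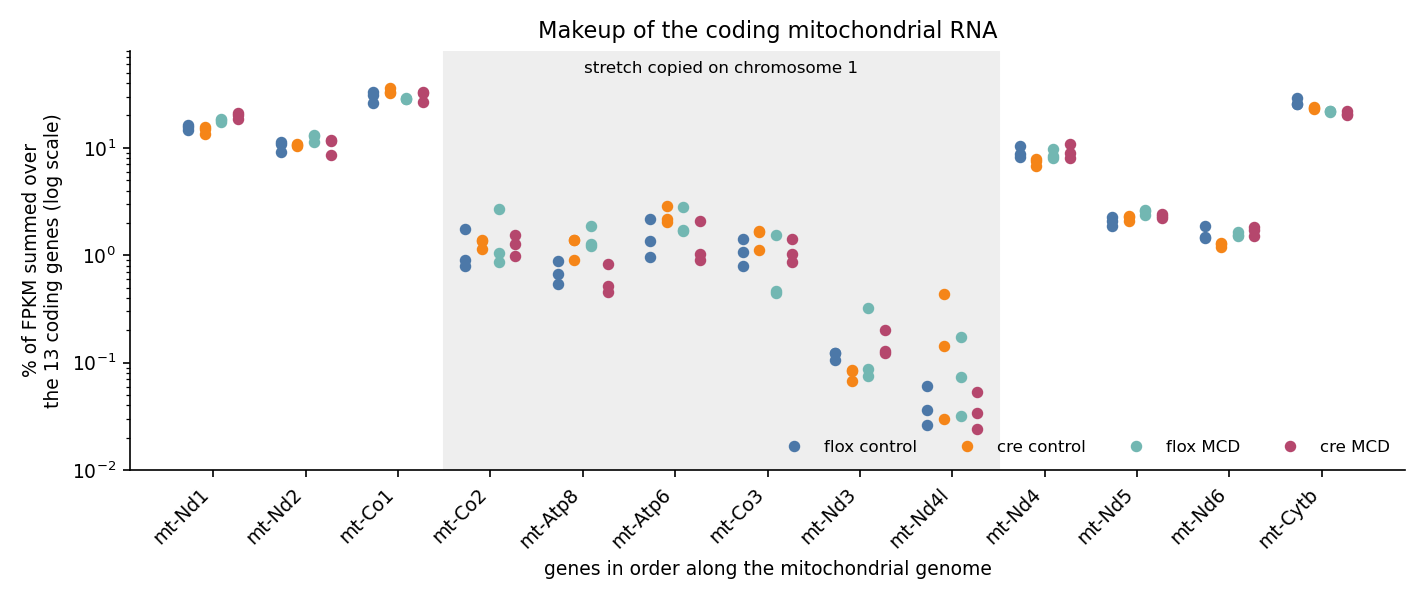
Share of each coding gene in the FPKM summed over the 13 coding genes, in percent on a log scale, for each of the 12 libraries (points, coloured by group). Genes follow their order on the mitochondrial genome, and the shaded genes lie in the stretch copied on chromosome 1. mt-Co1 held 26.1% to 35.8% in every library, and mt-Nd4l held 0.0241% to 0.439%.

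The makeup of the messages differed between the diets at 2 genes, in both genotypes. As a share of the FPKM summed over the 13 coding genes, mt-Nd1 held 13.3% to 16.2% in the 6 control libraries and 17.5% to 21.0% in the 6 MCD libraries. Its mean went from 15.5% ± 0.738 to 18.1% ± 0.61 in flox mice and from 14.5% ± 1.14 to 19.9% ± 1.34 in cre mice (SD, n = 3). mt-Cytb went the other way, with 23.1% to 28.8% in the control libraries and 20.3% to 22.2% in the MCD libraries. The diets did not overlap in either gene, and both genes lie outside the copied stretch. Each of the other 11 coding genes overlapped between diets, among them mt-Co1 with 26.1% to 35.8% on the control diet and 26.8% to 33% on MCD. mt-Nd6, whose gene lies beside mt-Cytb on the opposite strand, was at 5.14% to 6.53% of mt-Cytb in the control libraries and at 6.95% to 8.22% in the MCD libraries (FPKM ratio). These shares carry no test, and the genes singled out were chosen after all 13 had been seen.

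In flox mice no message passed the test on the MCD diet, but a pair of adjoining tRNA rows fell. With edgeR's quasi-likelihood test and p adjusted by Benjamini-Hochberg over 16523 genes, 2 of 35 members fell and none rose, where 2.63% of all genes tested fell and 2.64% rose. Both were the overlapping tRNA genes mt-Ti and mt-Tq. No coding gene and no rRNA gene passed: log2 fold changes of the 13 coding genes ran from -0.55 to 0.92, with 6 above 0 and a median of -0.04 (0.01 over all genes), and their adjusted p from 0.446 to 0.993. At an unadjusted p under 0.05 the coding count was also 0, where 18.8% of all genes tested were under it, and DESeq2 (which called 10% of all genes) and limma-voom called none. Of the 13 coding genes 1, mt-Cytb, had flox groups that did not overlap, with 24802, 38296 and 23353 CPM in flox control and 16399, 22508 and 20009 CPM in flox MCD (edgeR, adjusted p = 0.452). The share of all genes without overlap was not computed, so this is description only.

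mt-Ti was at 67.0, 95.3 and 48.6 CPM in flox control and at 19.4, 12.6 and 20.04 CPM in flox MCD. It fell by 2.02 ± 0.29 on the log2 scale (SE; edgeR, adjusted p = 0.00143), and all MCD libraries were below all controls. mt-Tq was at 38.6, 54.9 and 27.1 CPM in flox control and at 13.3, 13.01 and 18.9 CPM in flox MCD, again without overlap. It fell by 1.42 ± 0.29 on the log2 scale (SE; edgeR, adjusted p = 0.0121). The call of mt-Tq was lost under total count scaling, on the FPKM scale, and without flox control 2, flox MCD 1 or flox MCD 2, where its adjusted p ran from 0.0527 to 0.0966, while mt-Ti stayed called in each alternative. mt-Tg, the glycine tRNA, was next with -1.02 ± 0.31 and did not pass (edgeR, adjusted p = 0.0795).

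The flanking coding genes did not pass with this pair. mt-Nd1, just before mt-Ti, was at 11276, 18259 and 12483 CPM in flox control and at 11317, 15442 and 14176 CPM in flox MCD (edgeR, adjusted p = 0.975). mt-Nd2, after mt-Tq and the methionine tRNA mt-Tm, was at 8502, 15030 and 7657 CPM and at 8857, 10834 and 10712 CPM (adjusted p = 0.979). Both overlapped between the diets, as did mt-Tm. As an FPKM ratio, mt-Ti was at 8.24%, 7.24% and 5.40% of mt-Nd1 in flox control and at 3.5%, 3.68% and 4.98% in cre control. It was at 2.37%, 1.13% and 1.96% in flox MCD and at 1.71%, 1.55% and 1.83% in cre MCD. Every MCD library was thus below every control library, and the flox controls were above the cre controls. mt-Tq against mt-Nd2 was at 2.93% to 6.64% in the control libraries and at 1.76% to 3.18% in the MCD libraries, which overlap. A read that spans the junction of mt-Ti and mt-Tq touches both rows, and the share of such reads is not known here.

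**Figure D3:**
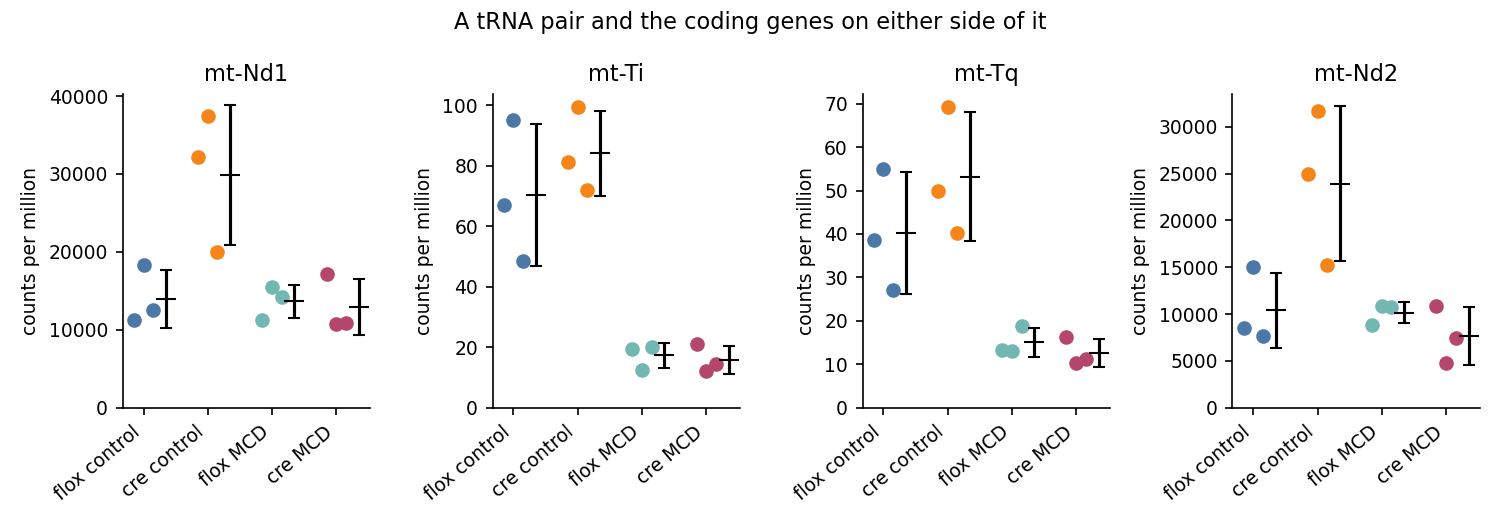
Levels of mt-Ti and mt-Tq, which overlap by 3 bases on opposite strands, and of the coding genes mt-Nd1 and mt-Nd2 on either side, in CPM scaled by TMM. Points are libraries, and bars are the mean ± SD of 3. mt-Ti was at 48.6 to 99.5 CPM on the control diet and at 12.0 to 21.1 CPM on MCD, while mt-Nd1 overlapped between the flox groups.

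In cre mice most mitochondrial coding and tRNA genes were called lower on the MCD diet than on the control diet. Of the 35 members tested 27 fell and none rose (edgeR, adjusted p under 0.05), where 3.04% of all genes tested fell and 3.73% rose. The 27 were 11 of 13 coding genes, 16 of 20 tRNA genes and neither rRNA gene. All 35 values were below 0, with a median of -1.79 over the coding genes, -1.85 over the tRNA genes and -0.69 over the rRNA genes, against -0.01 over all genes tested. The count changed with the libraries kept, as did the calls over all genes. It was 9 without cre control 2, 8 without cre MCD 2, 17 without cre control 1 and 12 without the library labelled cre MCD 3, and it was 17 when flox control 3 was left out together with that one. Over all genes, 502 were called lower with all libraries, 229 without cre control 2 and 142 without cre MCD 2. They were 231 without cre control 1, 254 without the library labelled cre MCD 3 and 474 without that one and flox control 3. Of the 11 coding calls, 1 was left without cre MCD 2, 2 without cre control 2, 4 without cre control 1, 4 without the library labelled cre MCD 3, 7 without flox MCD 3, 6 without flox control 3 and the library labelled cre MCD 3, 4 under total count scaling and 2 on either FPKM scale. The coding median ran from -2.06 to -1.35 over all alternatives.

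Of the 7 complex I messages 6 fell, 5 of them at least partly outside the copied stretch. mt-Nd5 was at 9408, 12528 and 5145 CPM in cre control and at 3793, 2164 and 2705 CPM in cre MCD. It fell by 1.65 ± 0.36 on the log2 scale (SE; edgeR, adjusted p = 0.0185), and the groups did not overlap. mt-Nd2 fell by 1.64 ± 0.38 (adjusted p = 0.0239), mt-Nd4 by 1.30 ± 0.35 (adjusted p = 0.0409), mt-Nd6 by 1.24 ± 0.31 (adjusted p = 0.0336) and mt-Nd1 by 1.21 ± 0.33 (adjusted p = 0.0427). mt-Nd1, the smallest of these falls, went from 32177, 37486 and 20014 CPM to 17115, 10777 and 10885 CPM.

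mt-Cytb, the mitochondrial subunit of complex III that carries the b haems, was at 59821, 78810 and 37359 CPM in cre control and at 22497, 12758 and 14400 CPM in cre MCD. It fell by 1.83 ± 0.36 on the log2 scale (SE; edgeR, adjusted p = 0.0105). Of the 3 complex IV subunits, mt-Co1 was at 113700, 163420 and 69084 CPM in cre control and at 36728, 27282 and 30665 CPM in cre MCD. It fell by 1.87 ± 0.38 (adjusted p = 0.0122). The lowest control library of either gene stood above the highest MCD library. mt-Co3 fell by 2.10 ± 0.59 (adjusted p = 0.049), and mt-Co2 had a value of -1.79 ± 0.51 and lay at the threshold of 0.05 without passing. Both lie in the copied stretch.

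The ATP synthase subunits, which lie in the copied stretch, had the largest called falls apart from mt-Nd4l. mt-Atp8 was at 644, 843 and 247 CPM in cre control and at 93.5, 49.6 and 105 CPM in cre MCD. It fell by 2.81 ± 0.50 on the log2 scale (SE; edgeR, adjusted p = 0.00593), without overlap, and was called in each of the 25 alternatives. In flox mice mt-Atp8 had gone from 83.5, 233 and 110 CPM to 170, 349 and 198 CPM, which overlap and did not pass (adjusted p = 0.446). mt-Atp6 fell by 2.57 ± 0.54 in cre mice (adjusted p = 0.0143). mt-Nd4l was at 295, 125 and 11.9 CPM in cre control and at 14.1, 5.41 and 4.44 CPM in cre MCD, and its fall of 4.18 ± 1.01 (adjusted p = 0.0283) rests on the first 2 controls, since the third lay inside the MCD range. mt-Nd3, at 53.3, 87.1 and 39.6 CPM in cre control and 62.2, 23.1 and 27.7 CPM in cre MCD, did not pass (-0.67 ± 0.58, adjusted p = 0.522).

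When the counts of the chromosome 1 copies were added to their mitochondrial genes, 27 members were called in cre mice as before and the coding median was -1.68. Of the 10 copies tested 4 fell as well, where 3.04% of all genes tested fell. Among them were Gm10222, the copy of mt-Nd4l (-2.85 ± 0.46, adjusted p = 0.0031), and Gm13340, a copy of the whole of mt-Co1 on chromosome 2 with 97.6% identity (-2.23 ± 0.40, adjusted p = 0.00646).

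**Figure D4:**
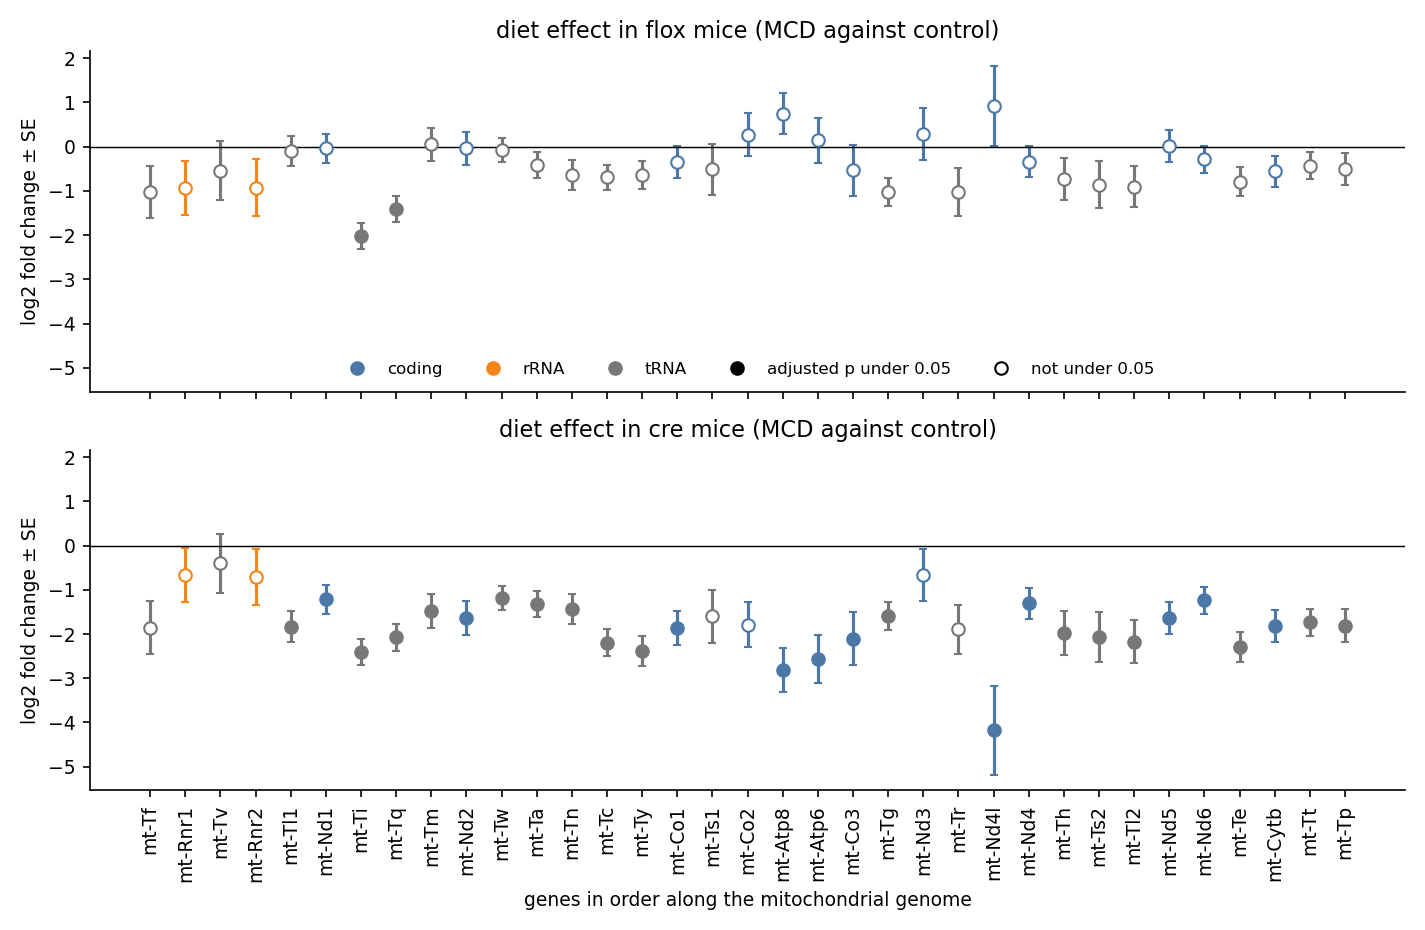
Log2 fold change on the MCD diet against the control diet for the 35 tested members, in genome order, in flox mice (top) and cre mice (bottom). Points are edgeR estimates with their SE, n = 3 libraries per group, and filled points have an adjusted p under 0.05. In flox mice only mt-Ti and mt-Tq are filled, and in cre mice 27 are.

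Among the tRNA genes in cre mice, mt-Ti moved most. It fell by 2.41 ± 0.30 on the log2 scale (SE; edgeR, adjusted p = 0.00055), from 81.2, 99.5 and 71.9 CPM to 21.1, 12.0 and 14.4 CPM. mt-Ty, the tyrosine tRNA, went from 79.2, 121 and 65.0 CPM to 16.8, 12.6 and 21.2 CPM and fell by 2.39 ± 0.34 (adjusted p = 0.00137). mt-Te, the glutamate tRNA between mt-Nd6 and mt-Cytb, fell by 2.29 ± 0.35 (adjusted p = 0.00191), and mt-Tc, the cysteine tRNA next to mt-Ty, by 2.20 ± 0.30 (adjusted p = 0.00116). mt-Tq fell by 2.08 ± 0.30 (adjusted p = 0.00157). These 5 rows, with mt-Tt and mt-Atp8, stayed called in each of the 25 alternatives.

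The other called tRNA genes fell by between 1.18 (mt-Tw, tryptophan) and 2.17 (mt-Tl2, leucine). They were mt-Tl1, mt-Tm, mt-Tw, mt-Ta, mt-Tn, mt-Tg, mt-Th, mt-Ts2, mt-Tl2, mt-Tt and mt-Tp. Levels were low in some: in cre MCD mt-Tl2 was at 0.39, 0.53 and 0.41 CPM, mt-Ts2 at 0.30, 0.33 and 0.39 CPM and mt-Th at 0.65, 0.40 and 0.62 CPM. With 1 library left out, mt-Ts2 stayed called in 3 of 12 fits, and mt-Th and mt-Tl2 each in 9. The 4 that did not pass were mt-Tf, mt-Tv, mt-Ts1 and mt-Tr. mt-Tv, the valine tRNA between the rRNA genes, had the value nearest 0, -0.40 ± 0.66 (adjusted p = 0.763), at 0.478 to 0.812 CPM in cre control and 0.253 to 0.580 CPM in cre MCD. Its neighbours mt-Rnr1 and mt-Rnr2 had values of -0.67 ± 0.60 and -0.72 ± 0.64 (adjusted p = 0.541 and 0.533). mt-Rnr2 was at 42283, 45187 and 59193 CPM in cre control and at 48079, 31883 and 9361 CPM in cre MCD, so the groups overlapped.

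On the control diet cre mice had higher values of the messages than flox mice, but no member passed the test. edgeR called 0 of 35 members, where 0.0424% of all genes tested were called in either direction, 22 members had an unadjusted p under 0.05 (7.2% of all genes did), and DESeq2 called 6, all higher (0.371% of the genes it gave an adjusted p, in either direction). All 13 coding values were above 0, with a median of 1.32 (-0.01 over all genes) and adjusted p of 0.414 to 0.842. mt-Atp8 had the lowest p, with a value of 2.02 ± 0.49 (adjusted p = 0.414). mt-Co1 was at 30352, 61997 and 40879 CPM in flox control, below all 3 cre controls, and had a value of 1.38 ± 0.38 (adjusted p = 0.559). mt-Cytb in flox control 2 lay above cre control 3, and the gene had a value of 1.03 ± 0.35 (adjusted p = 0.657). mt-Rnr1 and mt-Rnr2 overlapped between the genotypes (adjusted p = 1 and 0.993).

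On the MCD diet no member passed between genotypes either. edgeR called 0 of 35 members (0.0121% of all genes), 3 had an unadjusted p under 0.05 (8.33% of all genes did), and DESeq2 called none (1.02% of all genes). The coding values had a median of -0.34, with 12 of 13 below 0. That median rests on single libraries: it was -0.04 without flox MCD 2, -0.10 without cre MCD 2, -0.17 without the library labelled cre MCD 3 and -0.58 without cre MCD 1. mt-Atp8 had the lowest p among them, at 49.6 to 105 CPM in cre MCD and 170 to 349 CPM in flox MCD without overlap, and its value was -1.53 ± 0.48 (adjusted p = 0.367).

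Although 11 coding genes passed in cre mice and 0 in flox mice, the difference between the diet effects did not pass for any member. The interaction test called 0 of 35 members (edgeR; 0.00605% of all genes), and 19 had an unadjusted p under 0.05 (8.98% of all genes did). DESeq2 called 2 (0.576% of all genes) and the fit with no filter called 1 (0.0305%), each with a larger fall in cre mice. All 13 coding values were below 0, with a median of -1.57. The lowest p was that of mt-Atp8, -3.56 ± 0.68 (adjusted p = 0.214), and mt-Nd4l had the largest value, -5.10 ± 1.33 (adjusted p = 0.361). mt-Ti, which fell in both genotypes, had a difference of -0.39 ± 0.40 (adjusted p = 0.791). The 2 diet comparisons share no libraries.

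No nuclear gene of the respiratory chain or the mitochondrial ribosome was called lower in cre mice by edgeR with all libraries. Of 78 nuclear genes listed under complexes I to V, 5 rose and none fell on MCD, where 3.73% of all genes rose, and their median was 0.39. They are called subunits below, although the complex V list also holds Atpif1, an inhibitor of ATP synthase that is not a subunit. By complex, 0 of 37 rose in complex I (median 0.27), 0 of 4 in complex II, 1 of 9 in complex III, 2 of 12 in complex IV and 2 of 16 in complex V. The 5 were the complex III subunit Uqcr10 (0.93 ± 0.24, adjusted p = 0.0365), the complex IV subunits Cox7a2 (1.21 ± 0.32, adjusted p = 0.0369) and Cox5a (1.39 ± 0.37, adjusted p = 0.039), the catalytic ATP synthase subunit Atp5b (1.27 ± 0.33, adjusted p = 0.0358), and Atpif1 (1.73 ± 0.30, adjusted p = 0.00455), which inhibits ATP hydrolysis by that enzyme. The count was 1 without any single cre control library, without cre MCD 2, without the library labelled cre MCD 3, or without flox MCD 1 or 3, but 5 with flox control 3 and the library labelled cre MCD 3 both left out. It was 16 without flox control 1, 19 without flox control 3 and 11 without cre MCD 1. Calls over all genes moved with it. Of all genes 616 were called higher with all libraries, and 914, 1083 and 1046 in the last 3 fits in that order. In the fits where the count was 1, 177 to 412 of all genes were called higher. With flox control 3 and the library labelled cre MCD 3 both left out, 566 were.

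Of 78 nuclear genes for proteins of the mitochondrial ribosome, 13 rose and none fell in cre mice, where 3.73% of all genes rose and 3.04% fell. Their median was 0.49, with 72 values above 0. The 4 with the lowest p, given here, encode proteins of its large subunit: Mrpl54 (0.93 ± 0.19, edgeR, adjusted p = 0.0117), Mrpl50 (1.003 ± 0.207, adjusted p = 0.0131), Mrpl46 (1.14 ± 0.26, adjusted p = 0.0204) and Mrpl43 (1.26 ± 0.29, adjusted p = 0.0217). The count was 10 without flox control 3 and the library labelled cre MCD 3. It was 0 without cre MCD 2, 1 without cre control 1 or 2, 3 without cre control 3, 5 without the library labelled cre MCD 3, 7 without flox MCD 1 or 3, 20 without flox control 1, 22 (with 1 that fell) without flox control 3 and 23 without cre MCD 1. Calls over all genes changed between these fits too, as given above for the subunits. In flox mice 1 of the 78 rose, Mrpl54 (1.18 ± 0.19, adjusted p = 0.00274), where 2.64% of all genes rose, and the median was 0.08. None of the 78 respiratory subunits passed in flox mice, with a median of 0.00. The subunit median in flox mice was -0.21 without flox control 1, 0.24 without flox control 3 and 0.44 under total count scaling, which moves all genes up. The interaction test called none of either list. Its medians were 0.39 and 0.43, but 0.17 and 0.17 without flox control 3, and 0.06 and 0.13 when the library labelled cre MCD 3 was left out as well.

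**Figure D5:**
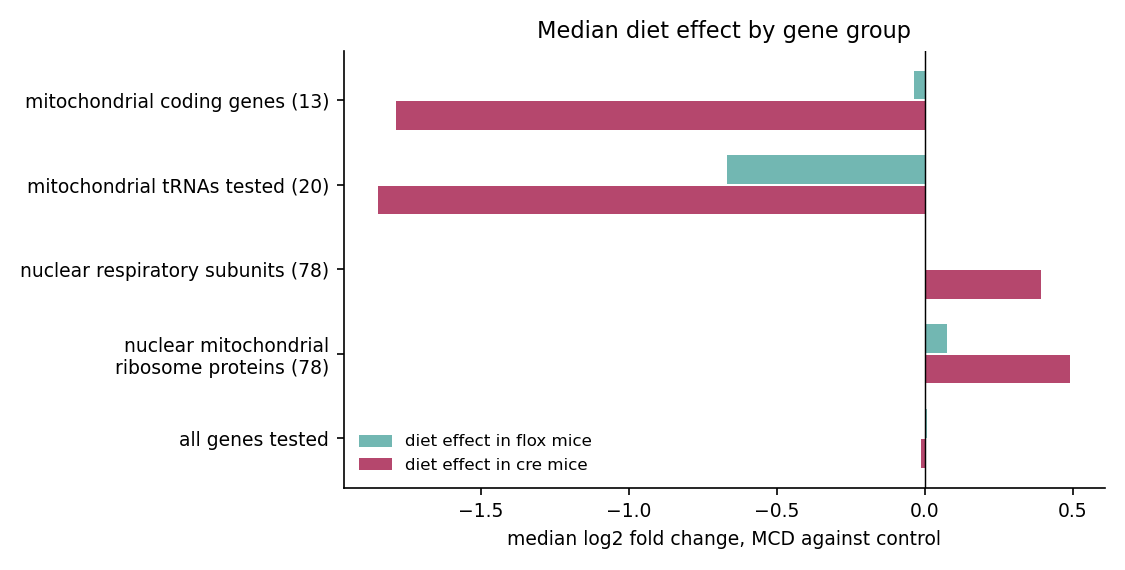
Median log2 fold change on MCD against control in each genotype, for the 13 mitochondrial coding genes, the 20 tested mitochondrial tRNA genes, 78 nuclear respiratory subunits, 78 nuclear mitochondrial ribosome proteins and all 16523 genes tested. In cre mice the mitochondrial medians were -1.79 and -1.85 and the nuclear ones 0.39 and 0.49, and in flox mice the coding median was -0.04.

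The nuclear genes that copy, transcribe and process mitochondrial DNA and RNA were called at about the rate of all genes, of which 3.73% rose in cre mice. Of 22 genes of mitochondrial DNA upkeep and transcription, 1 rose in cre mice, Lig3, the DNA ligase of mitochondria (1.07 ± 0.28, edgeR, adjusted p = 0.038), and the median was -0.09. Polrmt, the mitochondrial RNA polymerase, had the lowest p of that list between genotypes on the control diet, 0.58 ± 0.21, and did not pass (adjusted p = 0.657). Of 32 genes of mitochondrial RNA processing and stability, 1 rose in cre mice, Rexo2, an exoribonuclease of short RNAs (1.11 ± 0.28, adjusted p = 0.0331). None of 10 regulators of mitochondrial biogenesis passed, among them Ppargc1a with 0.46 ± 0.23 (adjusted p = 0.232). In flox mice none of these 3 lists had a called gene.

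Among genes of mitochondrial protein quality control 2 of 12 rose in cre mice, where 3.73% of all genes rose: the chaperone Hspa9 (1.41 ± 0.27, edgeR, adjusted p = 0.00961) and the matrix protease Lonp1 (0.87 ± 0.17, adjusted p = 0.0105). In flox mice 1 of the 12 rose and 1 fell, where 2.64% of all genes rose and 2.63% fell. Fgf21, a hormone released by stressed liver, rose by 3.14 ± 0.52 (adjusted p = 0.00296), and Clpx, a subunit of another matrix protease, fell by 1.04 ± 0.19 (adjusted p = 0.00544). Of 10 mitophagy genes tested, 1 rose in cre mice, Fundc1 (0.88 ± 0.25, adjusted p = 0.0467), and 1 fell in flox mice, Ulk1 (0.87 ± 0.19 lower, adjusted p = 0.0158). Single calls in a list this short are given as values of the genes and not of the list.

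Cell type markers moved with the diet beside these results. Among 8 genes that mark recruited macrophages, 6 rose in flox mice, where 2.64% of all genes rose, and 3 in cre mice, where 3.73% did. Their summed level went from 49.3 to 74.3 CPM (lowest and highest control) to between 126 and 380 CPM on MCD in flox mice, and from 39.8 to 80.2 CPM to between 97.3 and 202 CPM in cre mice. Of 9 hepatocyte markers, 3 fell in flox mice, where 2.63% of all genes fell, and 1, Otc, in cre mice, where 3.04% did. Their median log2 fold change was -0.694 in flox and -0.375 in cre mice. Their summed level was 55031 to 103699 CPM on control and 45110 to 65411 CPM on MCD in flox mice, and 65726 to 86324 CPM and 85540 to 95570 CPM in cre mice. Most of this sum was Alb, for example 74543 of 85540 CPM in cre MCD 1, so it does not show the other markers. Of 6 stellate cell markers 1 rose in each genotype, and of 6 resident macrophage markers 1 fell in flox mice. Of 3 neutrophil markers tested 1 rose in flox mice, and 1 marker each of cholangiocytes (of 5), endothelium (of 5) and red cells (of 3) rose in cre mice, while no lymphocyte marker passed. No marker of either list was at 0 in all libraries. The part of cell makeup and of the rRNA content of the libraries in the mitochondrial values was not tested.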

How the data were processed

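Liver poly(A) RNA of 12 libraries was prepared with a SMARTER mRNA-Seq kit, per the labels. Per the submitters' processing notes, cutadapt, FastQC, HISAT2, StringTie and edgeR were used with mm10. Versions and counting strand are not given in the sources used here. The deposited gene table holds estimated counts made by the authors, and the deposited expression table holds FPKM, which the authors scaled to gene length and depth. For all 37 members and libraries the count lay within 1 count plus 0.1% of the product of FPKM, gene length and 1 factor for each library.

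Estimated counts were rounded, filtered with filterByExpr and scaled with TMM. edgeR 4.0.16 (R 4.3.3) quasi-likelihood F tests, 2-sided, were run on 1 fit of 12 libraries with a mean per group, for 5 comparisons. P-values were adjusted over 16523 genes and called under 0.05. SEs were obtained from the fold change and the F statistic. With 3 against 3 libraries no exact permutation p can fall below 0.1. The edgeR script was tested on simulated data. Shares and FPKM ratios carry no test. No batch is labelled, and no pair of libraries was identical. The members and lists were chosen with earlier results of these data known. All coding and rRNA members and the tested tRNA genes are named, with up to 4 called genes per list and comparison by lowest p, or up to 2 where none passed. Alternatives were other scalings, filters and tools, FPKM, a replicate block and left-out libraries.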

Additional observations from a re-analysis of the deposited data

How the results depend on the processing

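The count of members called in cre mice was 14 under total count scaling, which moves the median of all genes to 0.308, 13 in limma fits of log2(FPKM + 1) and of log2(FPKM + 0.1), 17 without both flox control 3 and the library labelled cre MCD 3, and 8 to 29 with 1 library left out. In flox mice it was 1 under total count scaling (all-gene median moved to 0.491) and both FPKM scales, 5 without both those libraries, and 1 to 3 with 1 left out. DESeq2 1.42.0 called 6 members between genotypes on the control diet and 2 in the interaction test, where no filter gave 1. Whether the replicate numbers pair the libraries was not settled. Of 18 same-number pairs 2 had a correlation over 0.1, namely flox control with cre MCD at replicates 1 (0.283) and 3 (0.345). Of 12 libraries 8 correlated best with their own number. With the replicate block 29 members were called in cre mice and 2 in flox mice. Of all genes it called 962 lower and 1043 higher in cre mice. The nuclear subunit count became 15 and that of the ribosome list 23 higher and 1 lower. DESeq2 gave 16, and 22 higher and 1 lower. It called 990 lower and 1205 higher of all genes in cre mice, where edgeR called 502 and 616. The mt-Nd3 difference of the diet effects ran from -1.49 to 0.285 with 1 library left out. It turned positive without flox MCD 2. No called coding or rRNA value changed sign in any alternative, whereas 26 of 75 values did, 13 of them in the diet effect in flox mice. The coding share differences moved by less than the spread of the libraries. Adding the copies was chosen after the data were seen. Depth did not limit the coding genes. The causes were not tested.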
